A study of Mus musculus with 6 samples.

Results

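Imprinted growth genes are genes read mainly from the copy inherited from 1 parent that set the pace of growth before birth. The genes considered were H19, Igf2, Igf2r, Dlk1, Meg3, Peg3, Plagl1, Mest, Grb10 and Ndn, and every array probe whose annotated symbol was 1 of these 10 was taken. Of the 10 genes, 8 were named by at least 1 probe, with 17 probes among the 46632 on the array, which name 17711 genes in all. H19 and Meg3 were carried by no named probe and were not analysed here. A probe was tested when its detection p-value was under 0.05 on at least 3 of the 6 arrays, which 15 of the 17 probes and 19381 of all probes met.

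The tissue was laser-microdissected from frozen sections of mouse embryos at embryonic day 9.5, on a mixed background of the strains FVB and 129. One group was surface ectoderm of 3 Pax6-/- embryos (knockout), and the other was lens placode of 3 wild type embryos. Pax6 is the paired-domain transcription factor that the head ectoderm needs to form a lens. RNA from both eyes of an embryo was amplified and hybridised to 1 Illumina BeadArray, so each of the 6 values of a probe is 1 embryo. The question was which genes depend on Pax6 in this tissue.

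Imprinting rests on DNA methylation of CG dinucleotides that is laid down differently in egg and sperm and kept through later divisions. Paternally expressed genes such as Igf2, Dlk1, Peg3 and Mest are often linked to more growth or to progenitor states. Plagl1 and Ndn are also paternally expressed, but are known for restraining cell division. Maternally expressed Igf2r and Grb10, and H19 on the maternal chromosome beside Igf2, are known for holding growth back. The probes measure total RNA and do not tell the parental copies apart.

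Promoter sequence is shown for Plagl1 and Grb10, because these genes held the only tested imprinted gene probes whose genotypes did not overlap. These were 2 of the 15 tested, close to the share of all tested probes without overlap in either direction, 12%. Each run is the 250 bases upstream of an annotated RefSeq start on GRCm38.p6, 5′ to 3′ on the strand of the gene, with CG dinucleotides in capitals. The Plagl1 run lies at chr10:13090582-13090831 on the plus strand. The Grb10 runs lie on the minus strand at chr11:12037421-12037670, before the upstream start, and at chr11:12027972-12028221, before the downstream start.
Plagl1: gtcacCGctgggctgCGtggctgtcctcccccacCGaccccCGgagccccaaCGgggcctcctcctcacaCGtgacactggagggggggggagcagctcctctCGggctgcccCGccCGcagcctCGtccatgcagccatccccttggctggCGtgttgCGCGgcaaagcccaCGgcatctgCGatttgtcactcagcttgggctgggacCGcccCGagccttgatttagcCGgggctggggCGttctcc
Grb10 upstream start: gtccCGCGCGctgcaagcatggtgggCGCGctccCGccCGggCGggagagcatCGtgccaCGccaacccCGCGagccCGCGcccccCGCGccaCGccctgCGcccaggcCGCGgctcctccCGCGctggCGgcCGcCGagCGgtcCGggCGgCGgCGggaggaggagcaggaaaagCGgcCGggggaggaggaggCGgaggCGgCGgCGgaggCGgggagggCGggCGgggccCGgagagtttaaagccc
Grb10 downstream start: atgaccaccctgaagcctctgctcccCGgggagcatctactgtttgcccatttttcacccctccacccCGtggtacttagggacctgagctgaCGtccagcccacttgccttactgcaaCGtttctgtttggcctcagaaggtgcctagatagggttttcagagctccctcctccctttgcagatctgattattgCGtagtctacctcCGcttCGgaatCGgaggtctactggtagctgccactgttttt
The Plagl1 run held 19 CG dinucleotides, more than 80.3% of the 32851 such windows of all annotated genes. The Grb10 run before the upstream start held 40 CG dinucleotides, more than 98.7% of all windows, and the run before the downstream start held 8. The GC box, letters GGGCGG searched on both strands with overlapping matches each counted, occurred 5 times before the upstream Grb10 start, 2 times before the Plagl1 start and 0 times before the downstream Grb10 start, and 32.7% of all windows held at least 1. Grb10 is a known case of parental switching between promoters, with most tissues reading the maternal copy from the upstream start and neurons the paternal copy from downstream starts. The array does not show which start was used.

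Some properties of the 6 arrays bear on everything that follows. Knockout 1 had the lowest median signal, 41.7 against 47.3 to 49.8 on the other 5 arrays, and stood apart on the first principal component at -64.1, against -1.55 to 31.2. Xist, the noncoding RNA of the inactive X chromosome, read 4.95 to 5.12 in knockout, where it was undetected, and 9.19 to 9.43 in wild type (limma adjusted p = 0.000721). The Y-linked Kdm5d, Eif2s3y and Uty read higher on every knockout array than on any wild type array (limma adjusted p = 0.064, 0.089 and 0.228). Sex and genotype therefore cannot be told apart in these embryos. The brightest Pax6 probe differed by -0.74 (SE 0.21, limma adjusted p = 0.448), and the deleted part of the gene is not given in the labels. Of 14 lens placode and surface ectoderm markers, 13 were tested, and Foxe3 was undetected on all 6 arrays. The mean of the 13 was 8.45 to 8.56 in knockout and 9.03 to 9.14 in wild type. Maf, a lens transcription factor, differed by -3.86 (limma adjusted p = 0.0039) and weighs heavily in that mean. The median over the 13 was -0.38, with 3 above 0 and 10 below. Of these 10, 4 were lower without overlap between genotypes, against 6.47% of all tested probes. In tissue samples, fewer cells of a type and less RNA per cell cannot be told apart. Values below are normalized log2 intensities, and differences are knockout minus wild type on the log2 scale with the standard error (SE) and n = 3 embryos per genotype.

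No imprinted gene probe passed the test between the genotypes. Of the 15 tested, 0 had a limma Benjamini-Hochberg adjusted p under 0.05 (range 0.666 to 1.00), against 0.0929% of all probes tested, 18 in number. These were 7 higher (0.0361%) and 11 lower (0.0568%) in knockout, or 3 and 8 with median scaling. At an unadjusted p under 0.05 there were 2 of the 15, against 7.22% of all probes. The differences of the 15 probes ran between -0.52 and 0.57 with a median of 0.25, 11 above 0 and 4 below, while the median over all tested probes was -0.0039. Several of the 15 belong to the same gene. By the brightest probe of each of the 8 genes, 5 were above 0 and 3 below, with a median of 0.19. By the mean of each gene's probes, 6 were above 0 and 2 below, with a median of 0.14. The smallest difference among the 18 probes that passed was 1.03 in size, beyond every imprinted gene probe. The median of the 15 depended on wild type 1, without which it was 0.060. Scaling arrays to a common median put the median of all tested probes at -0.15 and gave 0.087 for Igf2, 0.16 for the brighter Dlk1 probe, 0.29 for the brightest Plagl1 probe and 0.070 for the brightest Grb10 probe. Relative to all probes under that scaling, these 4 values were 0.23, 0.31, 0.44 and 0.22.

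**Figure D1:**
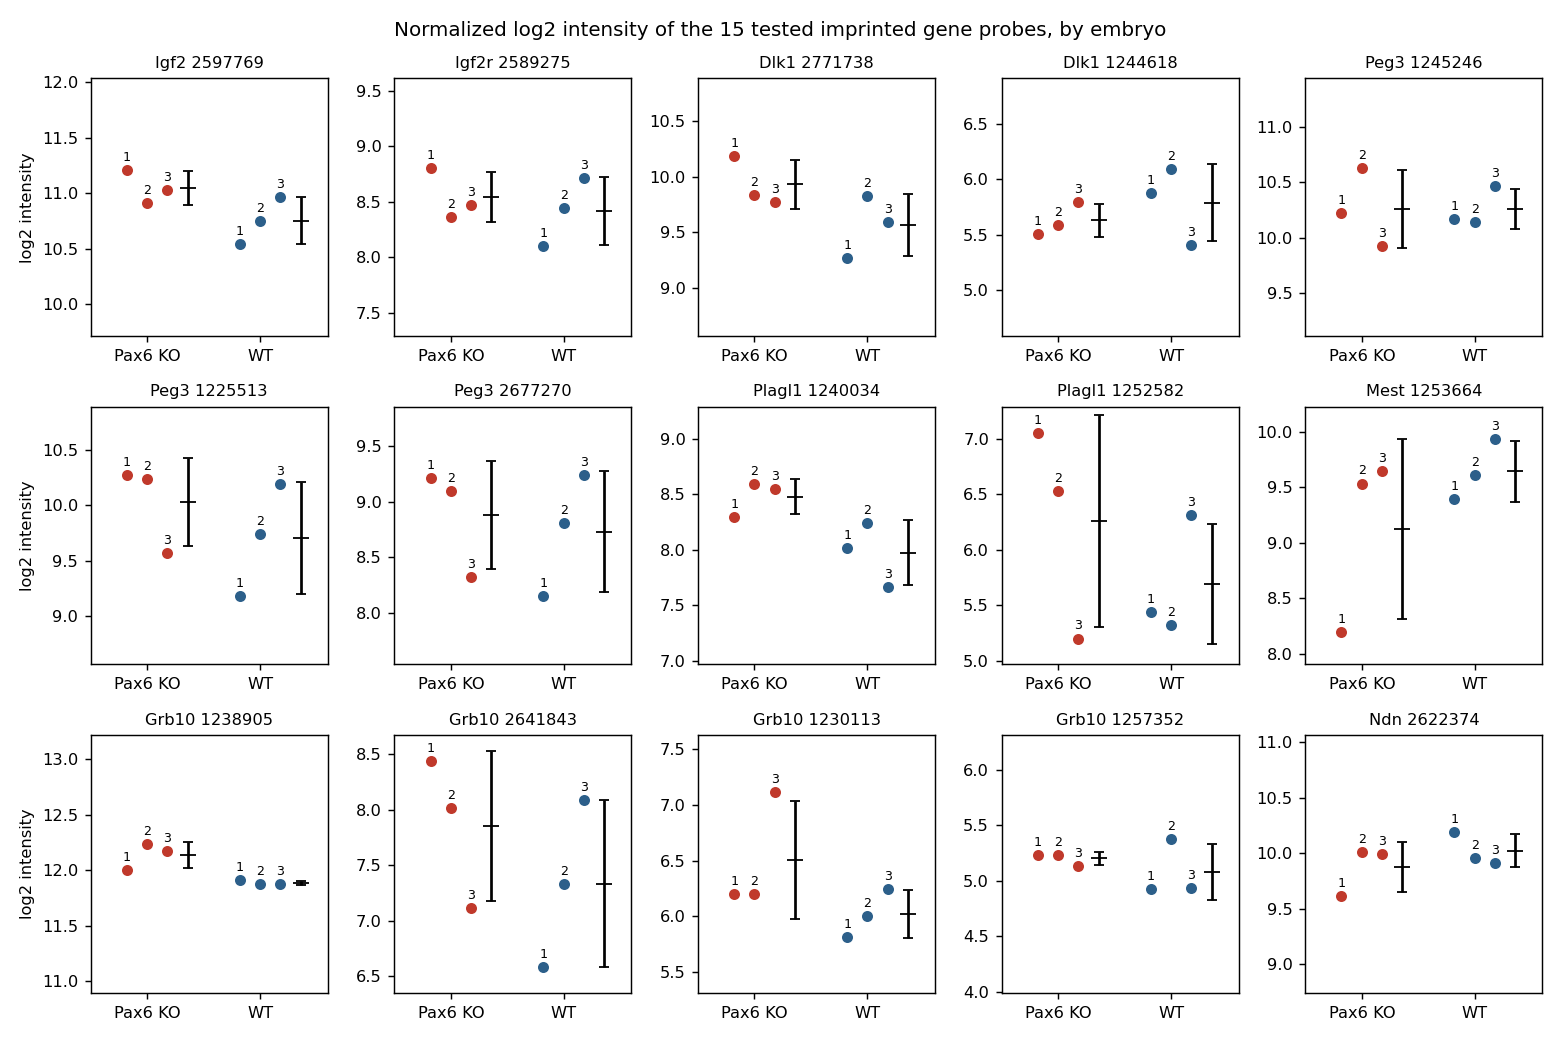
Normalized log2 intensity of the 15 tested probes of imprinted growth genes in each embryo, Pax6 knockout (red) left of wild type (blue). Numbers mark the embryo, the bar is the mean and SD of 3, and each panel spans the same number of log2 units. The genotypes are separate only in the brightest probes of Plagl1 and Grb10, 2 of the 15, against 12% of all tested probes in either direction.

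Igf2, the fetal growth factor that signals through the Igf1 and insulin receptors, was measured by 1 probe and was strongly detected on every array. It read 11.21, 10.91 and 11.03 in knockout 1 to 3, against 10.54, 10.75 and 10.96 in wild type 1 to 3. Wild type 3 lay above knockout 2, so the groups overlapped. The difference was 0.30 (SE 0.14, limma adjusted p = 0.748), a 1.23-fold higher mean in knockout with a 95% confidence interval of 0.978 to 1.54. It was 0.22 without knockout 1 and 0.19 without wild type 1. The standard error over the beads of an array was 4.97% to 6.56% of the Igf2 signal.

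Igf2r, the receptor that carries Igf2 to the lysosome for breakdown, read 8.80, 8.37 and 8.47 in knockout, against 8.10, 8.45 and 8.71 in wild type. The groups overlapped almost fully, and knockout 1 was the highest array and wild type 1 the lowest, as for Igf2. The difference of 0.12 (SE 0.21, limma adjusted p = 0.958) turned to -0.0028 without knockout 1 and to -0.035 without wild type 1. The 95% interval of the fold was 0.780 to 1.52.

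Grb10, an adaptor that binds the insulin and Igf1 receptors and dampens their signal, had 4 tested probes, all with a difference above 0. The brightest, ILMN_1238905, read 12.01, 12.24 and 12.18 in knockout, against 11.91, 11.88 and 11.88 in wild type. Every knockout embryo was above every wild type embryo, which also held for 5.54% of all tested probes, while 6.47% had every knockout embryo below. The difference was 0.25 (SE 0.11, limma adjusted p = 0.687), or 1.19-fold with a 95% interval of 1.00 to 1.41. In the deposited signal before normalization the groups overlapped, at 3557, 4357 and 5006 in knockout and 4604, 4056 and 3481 in wild type, and they also overlapped when arrays were scaled to a common median.

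The second Grb10 probe, ILMN_2641843, varied far more between embryos than between genotypes. It read 8.44, 8.01 and 7.12 in knockout, against 6.58, 7.33 and 8.09 in wild type. Its difference was 0.52 (SE 0.44, limma adjusted p = 0.888), with SDs of 0.68 in knockout and 0.75 in wild type. Single embryos moved it widely, to 0.14 without wild type 1, 0.23 without knockout 1, 0.89 without knockout 3 and 0.90 without wild type 3. Another probe, ILMN_1230113, annotated to a cDNA record in place of the RefSeq transcript, read 6.20, 6.20 and 7.12 in knockout and between 5.82 and 6.25 in wild type. Its difference of 0.49 (SE 0.37, limma adjusted p = 0.873) was 0.18 without knockout 3, the 1 embryo that stood above the rest. The fourth, ILMN_1257352, also on a cDNA record, was detected on 2 knockout arrays and 1 wild type array, and differed by 0.12 (SE 0.16, limma adjusted p = 0.938).

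Dlk1, a membrane protein with EGF repeats related to Notch ligands and a marker of progenitor cells, had 2 probes that disagreed in sign. The brighter one, ILMN_2771738, read 10.18, 9.84 and 9.77 in knockout, against 9.27, 9.83 and 9.59 in wild type. Wild type 2 fell between knockout 2 and 3. The difference was 0.37 (SE 0.18, limma adjusted p = 0.753), or 1.29-fold with a 95% interval of 0.968 to 1.72, and was 0.24 without knockout 1 and 0.22 without wild type 1. The dimmer probe, ILMN_1244618, annotated to the same transcript and detected on all 6 arrays with detection p-values up to 0.0268, read 5.51, 5.59 and 5.80 in knockout and 5.87, 6.09 and 5.41 in wild type. It differed by -0.16 (SE 0.27, limma adjusted p = 0.960), and by -0.0092 without wild type 2.

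Plagl1, a zinc finger factor that controls other imprinted genes and slows the cell cycle, had 2 tested probes, of which 1 was separate between the genotypes. ILMN_1240034 read 8.30, 8.59 and 8.55 in knockout, against 8.02, 8.24 and 7.66 in wild type. All 3 knockout embryos lay above all 3 wild type embryos, as for 5.54% of all tested probes, though knockout 1 was only just above wild type 2. The difference was 0.50 (SE 0.21, limma adjusted p = 0.666), or 1.42-fold with a 95% interval of 1.02 to 1.97. The groups overlapped with median scaling. They also overlapped in the deposited signal before normalization, at 284, 405 and 403 in knockout and 298, 355 and 248 in wild type.

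The other Plagl1 probes did not follow the same embryos. ILMN_1252582 read 7.05, 6.53 and 5.20 in knockout, against 5.44, 5.32 and 6.32 in wild type. Knockout 3 was the lowest of all 6 arrays by this probe and the second highest by the brighter one. It differed by 0.57 (SE 0.51, limma adjusted p = 0.896). Leaving out knockout 3 gave 1.09, and leaving out knockout 1 gave 0.17. ILMN_1244930, on a cDNA record, was detected only in knockout 1 and was not tested. It read 6.07, 4.91 and 5.10 in knockout, against 4.84, 5.05 and 4.78 in wild type. The knockout mean of 5.36 was at least 1.18-fold above the wild type bound of 5.13 (measured mean 4.89), and this rests on knockout 1 alone, since knockout 2 and 3 lay below that bound.

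Peg3, a large zinc finger protein of the paternal genome linked to growth and maternal behaviour, had 3 bright probes annotated to 1 transcript. ILMN_1245246 read 10.22, 10.62 and 9.93 in knockout, against 10.17, 10.14 and 10.46 in wild type, a difference of -0.0012 (SE 0.19, limma adjusted p = 1.00). ILMN_1225513 read 10.27, 10.24 and 9.57 in knockout, against 9.18, 9.74 and 10.19 in wild type. It differed by 0.32 (SE 0.28, limma adjusted p = 0.888), which became 0.060 without wild type 1, 0.20 without knockout 1, 0.55 without knockout 3, 0.56 without wild type 3 and 0.13 with median scaling. The third probe, ILMN_2677270, differed by 0.15 (SE 0.32, limma adjusted p = 0.973) and turned to -0.14 without wild type 1, to -0.018 without knockout 1 and to -0.049 with median scaling. By ILMN_1225513 and ILMN_2677270, wild type 1 and knockout 3 were the lowest embryos and the spread within each genotype was wider than the gap between them.

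Mest, an enzyme-like protein of the endoplasmic reticulum read from the paternal copy in mesoderm and other tissues, had the lowest difference of the 15 probes, and it came from 1 embryo. ILMN_1253664 read 8.19, 9.53 and 9.65 in knockout, against 9.39, 9.61 and 9.93 in wild type. Knockout 1 was far below the rest, and knockout 2 and 3 lay within the wild type range. The difference of -0.52 (SE 0.36, limma adjusted p = 0.860) shrank to -0.056 without knockout 1. The other Mest probe, ILMN_1249019, was detected on 0 of 6 arrays and was not tested.

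Ndn, necdin, a protein of the MAGE family that restrains division in neurons, read 9.61, 10.01 and 10.00 in knockout, against 10.19, 9.96 and 9.92 in wild type. Knockout 1 was again the lowest embryo, and the other values were interleaved. The difference was -0.15 (SE 0.16, limma adjusted p = 0.922), with a 95% interval of the fold of 0.707 to 1.15, and -0.017 without knockout 1.

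**Figure D2:**
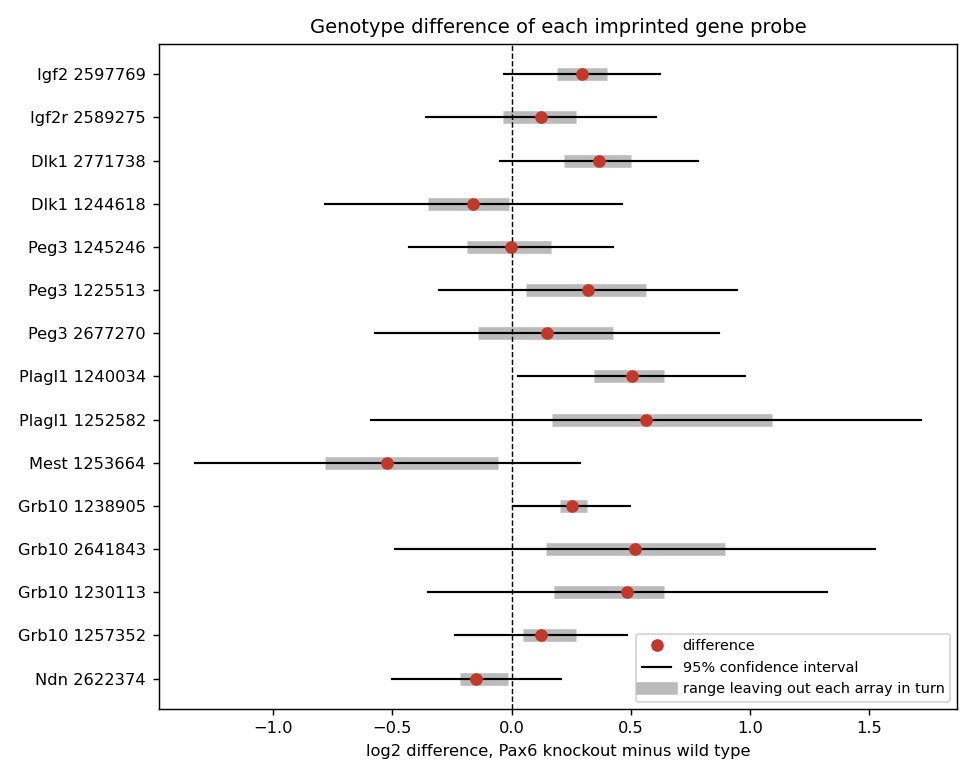
Difference in log2 intensity, Pax6 knockout minus wild type, for each of the 15 tested probes (points), with the 95% confidence interval (black lines) and the range of values when each array is left out in turn (grey bars). The intervals of 13 probes include 0, and those of the brightest Plagl1 and Grb10 probes start just above it, before adjustment for the number of probes.

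Probes of the same gene often followed different embryos. Dlk1, Peg3, Plagl1 and Grb10 had several tested probes, which formed 11 pairs within a gene, and 8 of these pairs had differences of the same sign. Most of the 8 came from Grb10, so the pairs are not independent. With 11 of the 15 probes above 0, many pairs would share a sign in any case. The Dlk1 pair and the Peg3 pairs with ILMN_1245246 had opposite signs. The closest pair was ILMN_1225513 and ILMN_2677270 of Peg3, whose values, each centred on its own mean, differed by a root mean square of 0.11 log2 over the 6 arrays. The widest was the tested Plagl1 pair at 0.78, followed by ILMN_2641843 and ILMN_1230113 of Grb10 at 0.76. Both genes with a separated probe thus also had probes whose embryos were ordered otherwise.

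Certain embryos were extreme for many of these probes at once. Wild type 1 was the lowest array for 8 of the 15 probes (53.3%), against 15.0% of all tested probes, and knockout 1 was the highest for 6 (40%), against 20.8%. By the brightest probe of each of the 8 genes, wild type 1 was lowest for 3 (37.5%) and knockout 1 highest for 3 (37.5%). Wild type 1 was 1.01 below the mean of the second Grb10 probe and 0.68 and 0.65 below that of the co-varying Peg3 probes, while knockout 1 was 1.19 below that of Mest. These probes share RNA from the same 6 embryos and are not independent. The median SD over the 15 probes was 0.23 in knockout and 0.28 in wild type, against 0.30 and 0.28 over all tested probes.

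**Figure D3:**
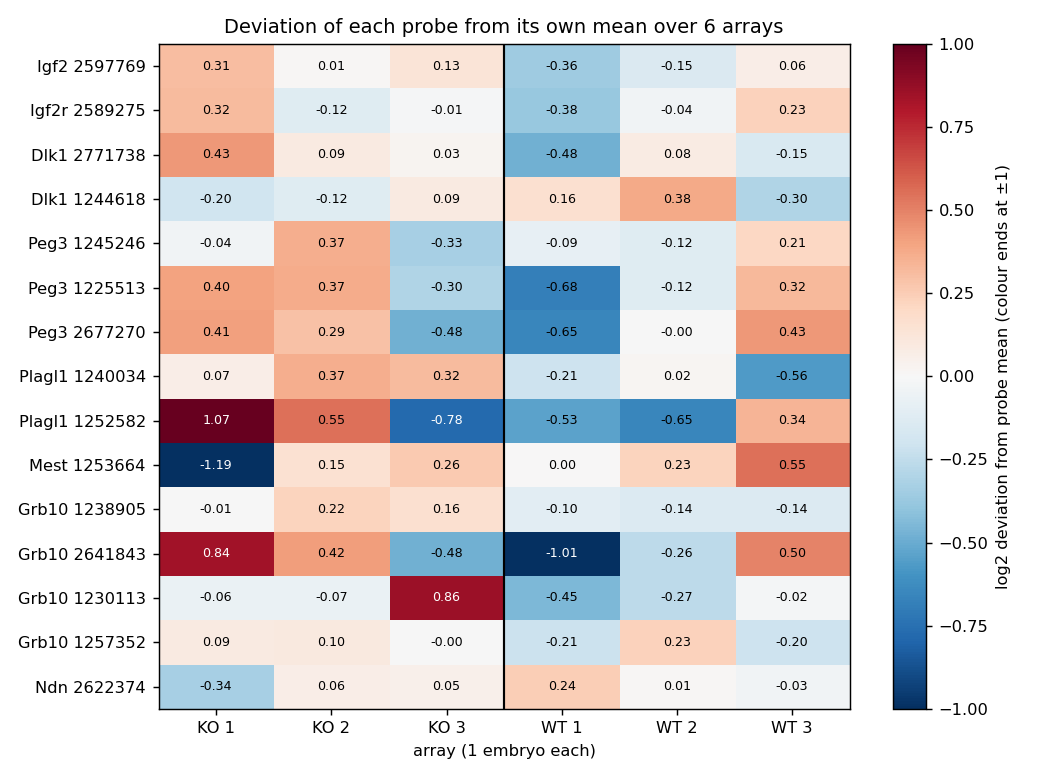
Deviation of each of the 15 tested probes from its own mean over the 6 arrays, in log2 units, with the 3 Pax6 knockout embryos left of the line and the 3 wild type embryos right of it. Wild type 1 is below the mean for most probes, and the rows of 1 gene differ in which embryos are high.

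Markers of other cell types were compared because mesenchyme is a known site of strong Igf2, Dlk1 and Mest expression. The mean over 14 tested of 22 head mesenchyme and neural crest markers was highest at 7.42 in knockout and at 7.24 in wild type, and the groups overlapped. By gene, 10 of the 14 had a difference above 0 and 4 below, with a median of 0.13. Without overlap, 3 were higher and 2 lower in knockout, against 5.54% and 6.47% of all tested probes. Of that list, Col1a1, Foxc1, Foxd3, Sox10, Lum and Snai1 were undetected on all 6 arrays. The mean of 7 endothelial markers was 6.10 to 6.74 in knockout and 6.10 to 6.50 in wild type, with Cdh5, Tek and Tie1 undetected throughout. The mean over 10 tested optic vesicle and neuroepithelium markers was 7.20 to 7.66 in knockout and 6.70 to 7.18 in wild type, a narrow gap. Of these 10, 9 had a difference above 0, and 4 were higher and 1 lower without overlap, against 5.54% and 6.47% of all tested probes. The lower one was Sfrp2, a secreted Wnt regulator, which differed by -1.13 (limma adjusted p = 0.059). Hes5, Sox1 and Fabp7 were undetected. Red cell markers averaged 6.91 to 8.35 in knockout and 6.11 to 7.44 in wild type over 6 tested genes, with Gata1 and Klf1 undetected. The part of these cells in the imprinted gene values was not tested.

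Among 63 further imprinted genes, 53 were named by a probe and 35 were tested, 20 with a difference above 0 and 15 below, with a median of 0.024. By limma, 0 passed in either direction. The smallest p belonged to Rian, a noncoding RNA of the maternal chromosome in the Dlk1 and Meg3 region. It read 7.63, 7.51 and 6.49 in knockout, against 6.33, 5.52 and 5.80 in wild type. All knockout embryos were above all wild type embryos, by 0.15 at the closest, and the difference was 1.32 (SE 0.41, limma adjusted p = 0.500). H13, a signal peptide peptidase, read 8.79, 7.86 and 8.77 in knockout and 7.79, 7.72 and 7.48 in wild type, a difference of 0.81 (SE 0.28, limma adjusted p = 0.556). The mean of its probes differed by 0.47, and 1 probe, ILMN_1212794, by -0.96. Pon2, a paraoxonase, was at 7.94, 7.63 and 8.30 in knockout and 8.56, 8.48 and 8.67 in wild type, a difference of -0.61 (SE 0.21, limma adjusted p = 0.566). Commd1, a copper and NF-kappaB regulator, differed by -0.85 (SE 0.30, limma adjusted p = 0.570), by -0.54 without knockout 1, and by -0.15 with its second probe. Of the 35 tested genes, 5 were higher and 2 lower in knockout without overlap between genotypes, against 5.54% and 6.47% of all tested probes.

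Other parts of the IGF pathway did not pass either. Of 26 listed ligands, receptors, binding proteins and their regulators, 22 had a probe and 15 were tested, 8 above 0 and 7 below, with a median of 0.076 and 0 passing by limma in either direction. Igfbp3, which binds and sequesters IGFs, read 5.77, 7.03 and 7.79 in knockout, against 5.21, 5.07 and 5.74 in wild type. Knockout 1 was barely above wild type 3, and the difference was 1.52 (SE 0.51, limma adjusted p = 0.533). Stc2, which inhibits the protease that frees IGFs from their binding proteins, read 6.92, 7.59 and 7.09 in knockout and 5.90, 6.25 and 6.54 in wild type, a difference of 0.97 (SE 0.33, limma adjusted p = 0.566). A second, dim Stc2 probe had a mean of 5.52 in knockout and 4.99 in wild type, a difference of 0.54 (SE 0.19, limma adjusted p = 0.581). It was undetected on every wild type array and met the detection filter through the knockout arrays alone, so it adds no separate support. Igfbp5, another binding protein, differed by 0.34 (SE 0.15, limma adjusted p = 0.688) and 0.26 by its 2 probes. By the brighter probe knockout 3, at 11.07, barely exceeded wild type 2, at 11.06, and the difference was 0.23 without knockout 1 and 0.11 with median scaling. Stc1 differed by 0.56 (SE 0.35, limma adjusted p = 0.836), with overlap.

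A list of genes tied to setting, keeping or removing DNA methylation, or to chromatin at imprinted regions, was close to even. Of 18 listed, 16 had a probe and 12 were tested, 6 above 0 and 6 below, with a median of -0.015 and 0 passing by limma. Dnmt3b, a DNA methyltransferase that sets new methylation, read 10.09, 10.22 and 10.17 in knockout, against 10.85, 10.42 and 10.38 in wild type. All knockout embryos were below all wild type embryos, as for 6.47% of all tested probes. The difference was -0.39 (SE 0.15, limma adjusted p = 0.628), or -0.24 without wild type 1. By the second, dimmer Dnmt3b probe the genotypes overlapped, with a difference of -0.26 (SE 0.29, limma adjusted p = 0.927). Uhrf1, which guides the maintenance methyltransferase to newly copied DNA, differed by -0.18 (SE 0.13, limma adjusted p = 0.868). Zfp445, a zinc finger protein that protects imprints, differed by 0.31 (SE 0.19, limma adjusted p = 0.826), and its other probes by -0.020 and -0.44. Smchd1, a chromatin protein needed for some imprinted clusters, differed by 0.48 (SE 0.41, limma adjusted p = 0.889), and its 4 probes were split in sign.

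**Figure D4:**
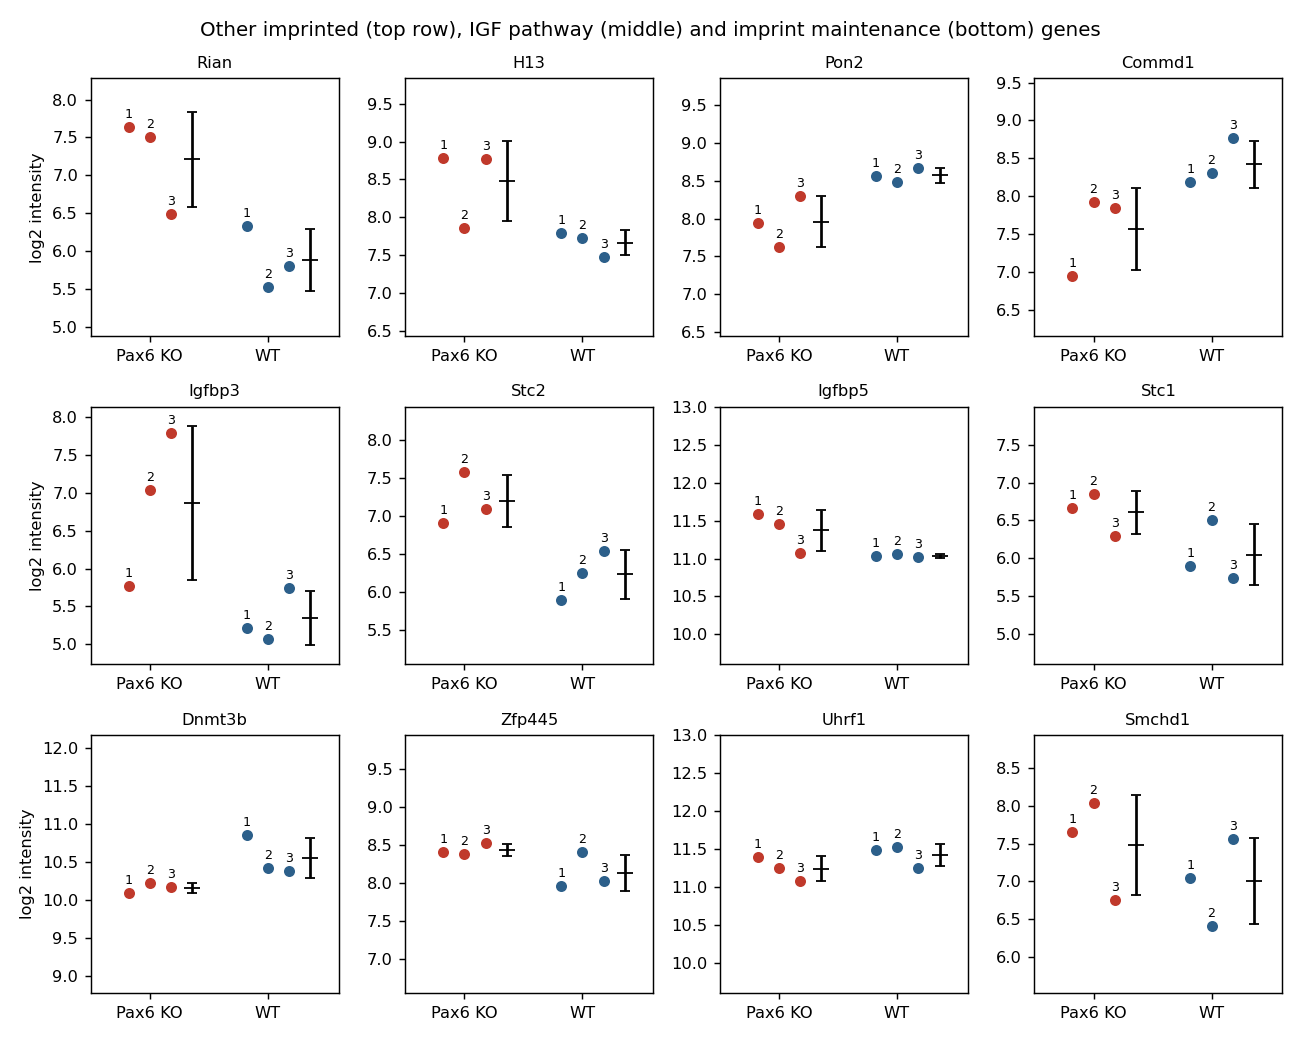
Normalized log2 intensity of the brightest probe of the 4 genes with the smallest p in each of 3 lists, by embryo, Pax6 knockout (red) left of wild type (blue), with the mean and SD of 3. Rian, Igfbp3 and Stc2 are above 0.9 in difference and none passes the adjusted threshold.

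The genes whose values over the 6 arrays came closest to those of Igf2, among 9617 others, were Abcf3, Wdr54 and Smap1. After centring, they differed from Igf2 by a root mean square of 0.028, 0.050 and 0.059 log2. Igf2r ranked 47 and Dlk1 ranked 229 by this measure, at 0.11 and 0.16. The other imprinted growth genes ranked 823 (Grb10), 3080 (Peg3), 3821 (Plagl1), 4687 (Ndn) and 8751 (Mest). For the brighter Dlk1 probe the closest genes were Tug1, Etv3 and Zim1, at 0.036, 0.059 and 0.073. Zim1 is itself imprinted and a neighbour of Peg3, and read 5.55, 5.25 and 5.34 in knockout and 4.82, 5.32 and 5.02 in wild type. These values are close to the floor, since undetected Xist read 4.95 to 5.12 in knockout. Wdr54, at 4.85 to 5.44, and Etv3, at 4.98 to 5.80, were also dim. These likenesses rest on 6 arrays and describe only those arrays.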

How the data were processed

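Lens region tissue of 6 embryos was measured on 6 arrays of 1 BeadChip. The authors' deposited table holds the mean bead intensity of each probe, with GenomeStudio named as the software (per the submitters' processing notes), and neither background-subtracted nor normalized, with a detection p-value and a bead count (median 36 or 37) per probe in the same deposited file. The authors' second deposited table holds background-subtracted intensity in the same rank order, used as an alternative. How that subtraction was done is not stated in any source at hand. Its median was 7.49 to 7.51 on the 6 arrays, against 41.7 to 49.8 in the first table, so it was not taken as free of normalization between arrays. Symbols came from GEO's platform annotation (29976 probes with 1 symbol, 10 with several, 16646 unnamed here), updated by Entrez identifier through the RefSeq gene table of GRCm38.p6 for 29921 probes. The array's build is not named, so no probe is placed on the genome. Promoter windows were matched by symbol for 9 of the 10 genes.

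Signals were background-corrected (normexp on detection p-values, offset 16), quantile normalized and brought to log2 (limma 3.58.1, R 4.3.3). Every probe with a detection p under 0.05 on 3 or more arrays was fitted with lmFit and eBayes with a variance trend, and p-values were adjusted over all 19381 by Benjamini-Hochberg at 5%. The fit was tested on simulated data. A bound for an undetected group uses, on each array, whichever is greater of the measured value and the dimmest detected probe. The brightest probe stood for a gene in lists. Named were every probe of the 10 genes, the 4 smallest p-values per gene list, Pax6, the sex-linked check genes, and the 3 genes nearest to Igf2 and Dlk1. The 10 genes and the lists were chosen with earlier results of these data known. The number of arrays limits the precision. Alternatives covered filters, background, offset, scaling, variance models, array weights, probes per gene, a block for replicate number, and omission of single arrays.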

Additional observations from a re-analysis of the deposited data

How the results depend on the processing

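No imprinted gene probe passed the threshold in any of the 253 alternative values computed for the 15 probes (lowest adjusted p = 0.468), and 12 of the 253 had the opposite sign. Filters, variance models, the replicate block and the choice of the brightest probe left each difference unchanged by construction. Signs could not turn there, so the 12 came from the other settings. The number of probes called over the whole array was 7 with no filter, 68 with the stricter filter, 28 without background correction, 11 with median scaling and 31 with array weights, against 18, and 3 to 7 when 1 array was left out: 7 without knockout 1 and 3 without any other. Deviations of same-numbered arrays correlated at -0.043, -0.022 and -0.047, which does not settle whether any embryos were handled in pairs. The only correlations above 0 were 0.093 (knockout 3 with wild type 1), 0.064 (knockout 2 with wild type 3) and 0.060 (knockout 1 with wild type 2). By position letter these arrays lay next to each other on the BeadChip, and a block for position was not fitted. With the replicate number as a block 1 probe was called. Median scaling shifted the median of all tested probes by -0.15; the median of the imprinted gene probes was then 0.087, or 0.23 relative to all probes, and 0 of them were separate between genotypes. That median was 0.060 to 0.35 when 1 array was left out. The count of separate imprinted gene probes was 1 with the mean of each gene's probes and 2 to 5 when 1 array was left out (5 without knockout 3 or wild type 3, 4 without wild type 2). With fewer arrays in a group any probe is separate more easily. The share over all probes was not computed for these fits, so their counts cannot be compared with the count from all 6 arrays.

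The sign turned for Igf2r with median scaling (-0.086) and among fits leaving out 1 array (-0.035 to 0.27), for Peg3 ILMN_2677270 with median scaling (-0.049) and leaving out 1 array (-0.14 to 0.43), and for Zfp445 with the mean of its probes (-0.050). Peg3 ILMN_1245246, near 0, was 0.0038 in the authors' table, 0.11 with array weights, 0.16 with the mean of probes and -0.18 to 0.16 leaving out 1 array. The cause was not tested.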

Other observations

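H13, an imprinted gene known for transcripts that end at different sites on the parental copies, was measured by 6 tested probes that did not move alike. These probes were singled out after their values were seen, and none passed by limma (adjusted p-values of 0.449 to 0.989). ILMN_2700292 read 7.32, 6.42 and 6.63 in knockout, against 5.54, 5.19 and 5.86 in wild type, a difference of 1.26 (SE 0.37). ILMN_2742160 read 6.46, 6.01 and 6.79 in knockout and 5.51, 5.36 and 5.30 in wild type, a difference of 1.03 (SE 0.31). ILMN_1212794, annotated to the same transcript as these, read 5.32, 5.57 and 5.97 in knockout and 6.62, 6.51 and 6.62 in wild type, a difference of -0.96 (SE 0.31). Of the 6 probes, 4 had all knockout embryos above all wild type embryos and this 1 had all below, against 5.54% and 6.47% of all tested probes. The positions of the probes in the gene are not known here.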
